A study of Chlorocebus sabaeus with 45 samples.

Results

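Heme is built from glycine and succinyl-CoA by a chain of enzymes that starts in the mitochondrion, passes through the cytosol and returns to the mitochondrion, where ferrous iron is set into the finished ring. The genes described here encode the 2 forms of its first enzyme (ALAS1 and ALAS2), the enzymes ALAD, UROS, UROD, CPOX, PPOX and FECH, and SLC25A38, the mitochondrial carrier that brings in glycine. These 9 members were taken by gene symbol from the 33994 rows of each deposited table, and not every enzyme of the pathway is among them. All 9 passed the filter on low values and were among the 18752 genes tested.

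Most heme is made by developing red cells in the bone marrow, which need it for hemoglobin, and circulating reticulocytes still carry RNA of this pathway. ALAS2 is the erythroid form of the first enzyme and ALAS1 the form used in other tissues, where heme serves cytochromes and other enzymes and ALAS1 sets the rate of synthesis. Mature red cells have lost their nucleus and mitochondria and no longer make heme.

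The samples were whole blood from 15 juvenile male vervet monkeys (Chlorocebus sabaeus), born in the wild on St. Kitts, with RNA from 3 draws of each. Blood was also drawn on other days for plasma, at least once between the day 3 and day 14 samples, so repeated bleeding went along with time and its effect cannot be told apart from that of time. The day 0 sample was drawn in the field directly after trapping, under ketamine and xylazine. The day 3 and day 14 samples were drawn while the same animals lived singly in quarantine housing, under dexmedetomidine and midazolam, so the effect of sedation or of place on a difference from day 0 cannot be told apart from that of time. The RNA integrity number of the samples was on average higher on the later days, and no animal had a lower one on day 14 than on day 0. No animal stayed in the wild as a control, and the reference was the earlier samples of the same 15 animals. Levels are given as deposited FPKM, that is, fragments per kilobase of gene length, set against the total of the library. Changes are log2 fold changes of FPKM after TMM scaling between libraries (trimmed mean of M values), with 0.1 added, tested with limma. Counts of animals higher or lower are on this scaled basis, so that single lines of deposited FPKM can run the other way.

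Between 13216280 and 31469337 fragments per library fell on genes. Each member rested on at least 171 fragments in every library (ALAD, day 0), and ALAS2 on 16109 to 1901222. With TMM the typical tested gene had a log2 fold change between −0.03 and 0.01 in each comparison, but without it the median was −0.36 from day 0 to day 14. Changes on day 14 are therefore relative to the typical gene. The 3 libraries least like the others of their day were those of animals 15 and 7 on day 0 and of animal 8 on day 3.

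On day 14, 7 of the 9 members had higher RNA levels in whole blood than on day 0. SLC25A38, ALAS2, ALAD, UROS, UROD, PPOX and FECH rose 3.34- to 5.99-fold over day 0, ALAS1 fell to 0.77-fold and CPOX did not pass the test. Thus 8 of the 9 members changed at an adjusted p-value under 0.05, which 36.0% of all tested genes also did (18.3% higher and 17.7% lower). Without TMM 7 members were again higher and 1 lower, while all tested genes split into 7.81% higher and 41.6% lower. From day 0 to day 3, 3 members rose (ALAD, PPOX and FECH), where 12.2% of all tested genes were called (6.11% higher and 6.11% lower). From day 3 to day 14, again 3 members rose (UROD, FECH and SLC25A38), where 13.3% were called (7.73% higher and 5.54% lower). The median log2 fold change over the 9 members was 1.0 from day 0 to day 3, 0.84 from day 3 to day 14 and 1.78 over the whole span, beside medians of 0.01, −0.03 and −0.03 over all tested genes. With the animal as a block, 6 members were called at the first step (19.0% of all tested genes), 6 at the second (23.9%) and 8 over the whole span (43.8%).

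**Figure D1:**
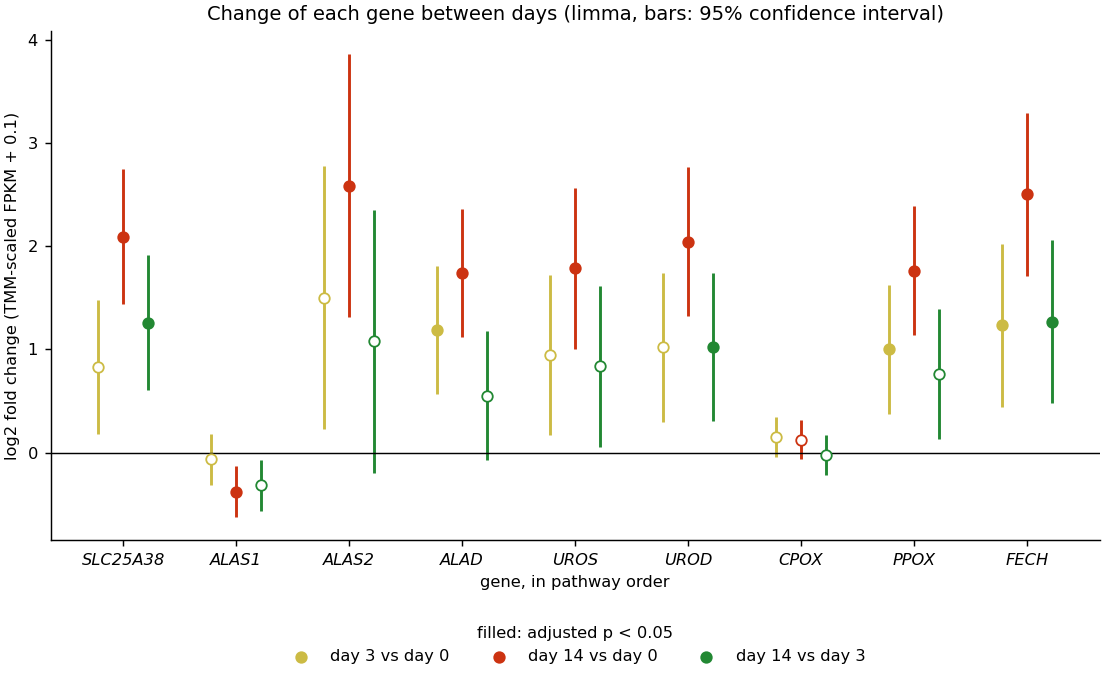
Log2 fold change of TMM-scaled FPKM + 0.1 for the 9 genes in pathway order along the horizontal axis. Points are limma estimates for the 3 comparisons of days, bars are 95% confidence intervals and filled points have an adjusted p under 0.05. On day 14 vs. day 0, 7 genes lie between 1.74 and 2.58, CPOX lies at 0.13 and ALAS1 at −0.38.

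In blood as a bulk sample, more cells of a type and more RNA per cell cannot be told apart. Genes that mark erythroid cells moved with the pathway, and their values stand here beside the members. Of 22 listed erythroid genes 16 were measured (the globin genes, GYPB and XK were not used here). Of these 16, 12 rose on day 3 and all 16 on day 14 relative to day 0, against 6.11% and 18.3% of all tested genes. On day 3 the count was 15 with the animal as a block, 14 without TMM and 16 without the 3 libraries least like the others. From day 3 to day 14, 3 of the 16 rose, against 7.73% of all tested genes. With the block it was 6, where 23.9% of all tested genes were called. The summed TMM-scaled FPKM of the 16 genes ranged from 202 through a median of 1221 to 7507 on day 0. On day 3 it ranged from 954 through 2495 to 13900, and on day 14 from 2038 through 7183 to 18310. Averaged over the 16 genes, the log2 change from day 0 was 1.51 ± 1.07 (SD, n = 15) on day 3 and 2.43 ± 1.70 on day 14. From day 3 to day 14 it was 0.92 ± 1.34, with 10 animals up and 5 down.

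Other blood cell markers were followed as well. Over all tested genes, 6.11% were higher and 6.11% lower on day 3, and 18.3% and 17.7% on day 14. Without TMM the day 14 shares were 7.81% higher and 41.6% lower. With the animal as a block, 19.0% were called on day 3 and 43.8% on day 14. Of 14 neutrophil genes 7 fell on day 3 (4 without the 3 least typical libraries) and 11 on day 14 (9 without them). Their summed level had a median of 3649 on day 0 (1289 to 40020) and of 2179 on day 14 (500 to 4241). The most abundant of them, S100A9, reached 27440 deposited FPKM on day 0 (median 2537). All 13 platelet genes rose on day 3 and 4 of them on day 14. Their sums ran from 264 through a median of 662 to 4502 on day 0. On day 3 they ran from 650 through 2080 to 5017, and on day 14 from 427 through 1519 to 3657. Of the platelet genes on day 14, 2 rose without TMM and 7 with the animal as a block. Of 8 NK cell genes 2 rose on day 3 and 6 on day 14. For NK cell genes these counts were 0 and 4 without TMM, and 6 and 7 with the block. The NK cell sums ran from 80.5 through a median of 111 to 212 on day 0. On day 14 they ran from 143 through 263 to 510. Of 9 T cell genes 2 rose and of 7 B cell genes 1 fell on day 14 (without TMM 3 and 6 fell), and of 10 monocyte genes 1 rose and 2 fell (0 and 4 without TMM). In the reported fit the T cell, B cell and monocyte lists each had a smaller share called on day 14 than the 36.0% of all tested genes. On day 3, 4 of the 10 monocyte genes rose (0 without TMM). No measured marker of these lists had a median of 0 FPKM on any day. S100A12 lay near the floor, with medians of 0.14, 0.04 and 0.02 FPKM on the 3 days and a minimum of 0 on each. GP1BA and VWF had day 0 medians of 0.40 FPKM. The part of the marker shifts in the changes of the members was not tested.

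Glycine enters the mitochondrion by SLC25A38, the carrier whose loss causes a congenital sideroblastic anemia in humans. SLC25A38 ranged from 38.9 FPKM (animal 9) through a median of 83.3 to 220 (animal 7) on day 0. On day 3 it ranged from 79.0 through 147 to 339, and on day 14 from 162 through 295 to 500. The upper day 0 values reached into the day 14 range, but after scaling each of the 15 animals was higher on day 14 than on both earlier days. SLC25A38 had a log2 fold change of 2.09 (SE 0.32) from day 0 to day 14, or 4.27-fold with a 95% confidence interval of 2.72 to 6.69, at an adjusted p of 4.64e-06. From day 3 to day 14 it was 1.26 (SE 0.32, adjusted p = 0.0116). Across all tested genes, 1.57% were higher in 15 of 15 animals on day 14 than on day 0, and 0.624% on day 14 than on day 3. From day 0 to day 3 the estimate of 0.83 missed the threshold (adjusted p = 0.0830) and passed it with the animal as a block (adjusted p = 0.0173). It was higher in 13 of 15 animals.

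ALAS2, the erythroid enzyme that joins glycine to succinyl-CoA, was the most abundant member in every library. On day 0 it ranged from 476 FPKM (animal 9) through a median of 5247 to 19900 (animal 13). It ranged from 4392 (animal 8) through 12510 to 22520 (animal 5) on day 3, and from 7871 (animal 4) through 21120 to 31740 (animal 3) on day 14. The ranges overlapped on all 3 days, and as a fold the lower end rose more than the upper. The highest value was 41.8 times the lowest on day 0, 5.13 times on day 3 and 4.03 times on day 14.

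ALAS2 took a median of 1.11% of all gene fragments of a library on day 0, 2.64% on day 3 and 4.46% on day 14, with a maximum of 6.71%. By FPKM it was the first-ranked gene of the whole library in 4 of the day 0, 13 of the day 3 and 6 of the day 14 libraries. Its lowest rank was 87 on day 0, 2 on day 3 and 3 on day 14. FECH, the next most abundant member, took a median of 0.29%, 0.59% and 0.97% on the 3 days.

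Over the whole span, from day 0 to day 14, the log2 fold change of ALAS2 was 2.58 (SE 0.63), a 5.99-fold rise (95% confidence interval 2.48 to 14.5, adjusted p = 0.00129). ALAS2 was higher in 14 of 15 animals, as were 7.07% of all tested genes in at least 14. Within animals the log2 change ran from −1.47 in animal 13 to 6.69 in animal 9. At the first step, to day 3, the estimate was 1.5 (SE 0.63) and 14 of 15 animals were higher, but the adjusted p was 0.114. A fold change of 1.17 to 6.85 lay within its 95% confidence interval. Its adjusted p was 0.0139 without TMM, 0.0426 with the stricter filter on low values and 0.0173 with limma without an intensity trend. It was 0.0632 with the animal as a block, 0.195 with the RNA integrity number and 0.109 with both. Between the later days the estimate was 1.08 (adjusted p = 0.241), with 12 of 15 animals higher.

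ALAS1, the form of the same enzyme used outside the erythroid lineage, did not follow ALAS2. It ranged from 5.96 FPKM (animal 11) through a median of 8.98 to 13.9 (animal 7) on day 0. On day 3 the range was 4.83 through 8.33 to 13.5, and on day 14 it was 3.47 through 5.04 to 7.73. The lower day 0 values fell within the day 14 range, and 13 of 15 animals were lower on day 14. Its log2 fold change from day 0 to day 14 was −0.38 (SE 0.12, 0.77-fold, 95% confidence interval 0.65 to 0.91, adjusted p = 0.0137). The fall missed the threshold when the RNA integrity number of the sample entered the fit (adjusted p = 0.111, and 0.0772 together with the animal as a block). From day 0 to day 3 the estimate was −0.06 with a 95% confidence interval from −0.31 to 0.18 (adjusted p = 0.806), and 8 of 15 animals were lower. That estimate turned to 0.02 without animal 7 and to 0.04 without the 3 libraries least like the others. The estimate of −0.31 from day 3 to day 14 had an adjusted p of 0.0740, and of 0.0353 with the animal as a block (0.103 when RNA integrity was added). Without TMM the ALAS1 estimates were −0.68 for that step (adjusted p = 0.000995) and −0.79 from day 0 to day 14.

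**Figure D2:**
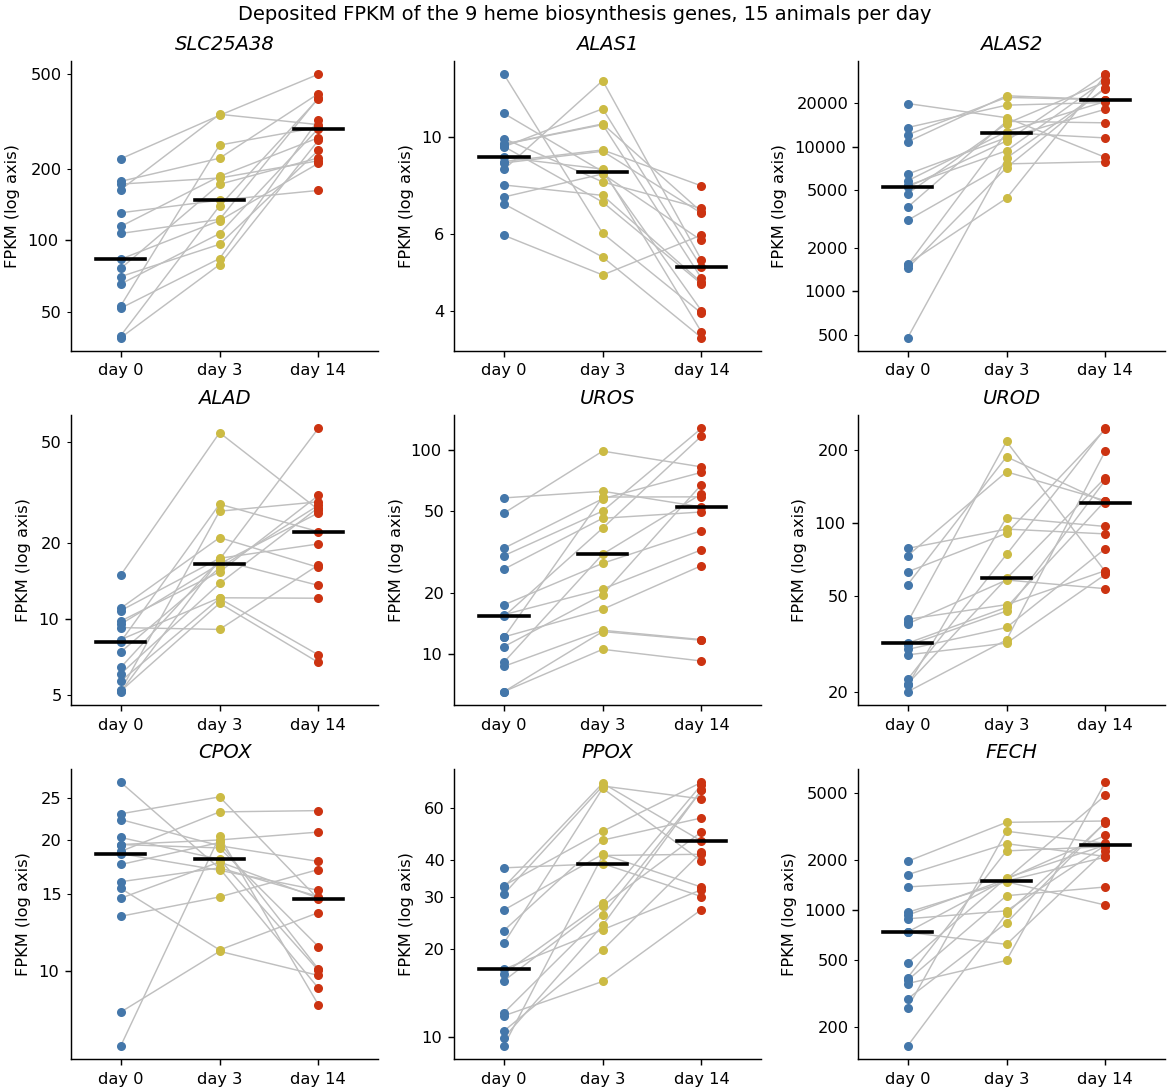
Deposited FPKM of each gene on a log axis, 1 panel per gene in pathway order, with 15 animals per day as points, lines joining the samples of an animal and black bars at the medians. The medians of ALAS2 step from 5247 to 12510 to 21120, whereas that of ALAS1 goes from 8.98 to 8.33 to 5.04 and that of CPOX from 18.6 to 18.0 to 14.6.

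As both forms catalyse the same step, their ratio within a library is a measure that no scaling between libraries touches. ALAS2 FPKM was 48.9 (animal 9) to 2255 (animal 13) times that of ALAS1 on day 0, with a median of 547. On day 3 the ratio ran from 324 (animal 8) through 1445 to 4162 (animal 5), and on day 14 from 1005 (animal 4) through 4902 to 6248 (animal 14). The ranges of the 3 days overlapped, and the lowest day 14 ratio lay above the day 0 median. The mean log2 change of the ratio from day 0 was 1.56 ± 1.15 (SD, n = 15) on day 3, or 2.96-fold, with 14 of 15 animals higher. It was 2.95 ± 1.84 on day 14, or 7.74-fold, again with 14 of 15 higher. Both had p = 0.000122 in a two-sided exact sign-flip permutation test over animals (0.000183 after Benjamini-Hochberg adjustment over the 3 comparisons). From day 3 to day 14 the ratio rose a further 1.39 ± 1.34 on the log2 scale in 13 of 15 animals, with an adjusted p of 0.000854 in the same exact permutation test.

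**Figure D3:**
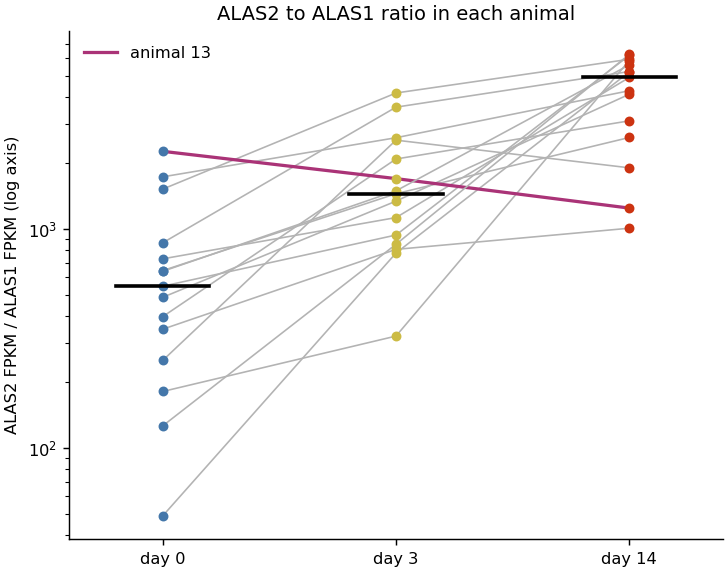
Ratio of ALAS2 to ALAS1 FPKM (0.1 added to each) in every animal on a log axis, by day, with lines joining the samples of an animal and black bars at the medians of 547, 1445 and 4902. Animal 13, drawn in purple, had the highest ratio on day 0 (2255) and is the animal whose ratio fell from day 0 to both later days.

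ALAD joins pairs of aminolevulinic acid molecules into porphobilinogen and is the first cytosolic enzyme of the pathway. It was among the low members on day 0, at 5.17 FPKM (animal 8) through a median of 8.16 to 14.97 (animal 7). On day 3 it ranged from 9.12 through 16.6 to 54.7 (animal 7), and on day 14 from 6.75 (animal 1) through 22.2 to 56.9 (animal 8). The days overlapped, but after scaling every animal was above its own day 0 value on both later days, as were 1.30% of all tested genes on day 3. ALAD had a log2 fold change of 1.19 (SE 0.31, adjusted p = 0.00947) on day 3 and of 1.74 (SE 0.31, 3.34-fold, adjusted p = 2.70e-05) on day 14. From day 3 to day 14 the animals split, with 7 higher and 8 lower (log2 fold change 0.55, 95% confidence interval −0.07 to 1.18, adjusted p = 0.217). ALAD was highest on day 3 in 8 of 15 animals, more than any other member.

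UROS closes the tetrapyrrole chain to uroporphyrinogen III. It ranged from 6.57 FPKM (animal 7) through a median of 15.3 to 58.1 (animal 13) on day 0, and from 10.6 through 30.9 to 98.4 on day 3. On day 14 it ranged from 9.29 (animal 10) through 52.5 to 127 (animal 12). Animal 10 was the lowest on both later days, and the spread widened, from a ratio of highest to lowest of 8.85 on day 0 to 13.7 on day 14. From day 0 to day 14 its log2 fold change was 1.78 (SE 0.39, 3.44-fold, adjusted p = 0.000332), with 14 of 15 animals higher. On day 3, 14 of 15 animals were also above day 0, against 4.03% of all tested genes with at least 14. The estimate of 0.95 had an adjusted p of 0.101, and 0.00767 with the animal as a block. From day 3 to day 14 the estimate was 0.84, with an adjusted p of 0.130, of 0.0159 with the block and of 0.0551 with the block and RNA integrity.

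UROD removes carboxyl groups from uroporphyrinogen to give coproporphyrinogen. It ranged from 19.99 FPKM (animal 8) through a median of 31.8 to 78.5 (animal 10) on day 0, and from 31.8 through 58.9 to 218 (animal 6) on day 3. On day 14 it ranged from 53.4 (animal 13) through 121 to 247 (animal 14). All 15 animals were higher than on day 0 on both later days, while the upper day 0 values stayed within the day 14 range. UROD had a log2 fold change from day 0 to day 14 of 2.04 (SE 0.36, 4.12-fold, 95% confidence interval 2.51 to 6.78, adjusted p = 2.29e-05). To day 3 it was 1.02 (SE 0.36), with an adjusted p of 0.0516 that fell to 0.0208 with the animal as a block. The estimate from day 3 to day 14 was also 1.02 (adjusted p = 0.0482). It missed the threshold without any 1 of 9 animals (1, 2, 3, 4, 8, 9, 12, 14 or 15) and had a log2 fold change of 0.82 without animal 8 (adjusted p = 0.158). It also missed it with RNA integrity in the fit, alone (0.0694) or with the block (0.0626), and without the 3 libraries least like the others (0.0845).

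CPOX converts coproporphyrinogen to protoporphyrinogen between the mitochondrial membranes, and it was the only member with no call in any of the 3 comparisons. It ranged from 6.72 FPKM (animal 15) through a median of 18.6 to 27.1 (animal 14) on day 0. On day 3 the range was 11.1 through 18.0 to 25.1, and on day 14 it was 8.35 (animal 15) through 14.6 to 23.4. The 3 days overlapped almost entirely, and 9 of 15 animals were higher on day 14 than on day 0 after TMM scaling. Its log2 fold change from day 0 was 0.15 on day 3 (95% confidence interval −0.04 to 0.34, adjusted p = 0.326). On day 14 it was 0.13 (−0.06 to 0.32, adjusted p = 0.310), an interval that reaches 1.25-fold at its upper end. Without TMM this estimate turned to −0.29 (adjusted p = 0.129), and that from day 3 to day 14 went from −0.02 (adjusted p = 0.892) to −0.39 (adjusted p = 0.0478). A gene for a long non-coding RNA overlaps CPOX in the RefSeq annotation of a later assembly, which can bear on how fragments there were counted.

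PPOX, of the inner mitochondrial membrane, oxidises protoporphyrinogen to protoporphyrin. It ranged from 9.37 FPKM (animal 11) through a median of 17.1 to 37.7 (animal 13) on day 0. On day 3 it ranged from 15.5 (animal 4) through 38.9 to 73.0 (animal 5), and on day 14 from 27.2 (animal 4) through 46.4 to 73.5 (animal 15). The top of the range was nearly the same on both later days, and the bottom moved up. PPOX had a log2 fold change from day 0 of 1.0 (SE 0.31, adjusted p = 0.0281) on day 3 and of 1.76 (SE 0.31, 3.40-fold, adjusted p = 2.59e-05) on day 14, each with 14 of 15 animals higher. The day 3 rise missed the threshold without animal 6 (adjusted p = 0.0589) or animal 11 (0.0728), and with RNA integrity in the fit (0.0513). Between the later days it was 0.76, with an adjusted p of 0.0880, of 0.0250 with the animal as a block and of 0.0719 with the block and RNA integrity.

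FECH, ferrochelatase, inserts iron into protoporphyrin and is the last enzyme of the pathway. It ranged from 155 FPKM (animal 9) through a median of 738 to 1960 (animal 5) on day 0. It ranged from 500 (animal 8) through 1495 to 3349 (animal 5) on day 3, and from 1072 (animal 1) through 2446 to 5806 (animal 8) on day 14. The days overlapped, and all 15 animals were higher on day 14 than on day 0. Ferrochelatase RNA had a log2 fold change of 2.50 from day 0 to day 14 (SE 0.39, 5.67-fold, 95% confidence interval 3.28 to 9.80, adjusted p = 5.81e-06). At the first step it was 1.23 (SE 0.39, adjusted p = 0.0314), with 12 of 15 animals higher. It missed the threshold there without animal 2, 6, 9 or 11 (adjusted p of 0.0590 to 0.0939), or with RNA integrity in the fit (0.0516). At the second step it was 1.27 (SE 0.39, adjusted p = 0.0287), with 11 of 15 higher, and it missed the threshold without animal 3, 8, 9, 12 or 14 (0.0519 to 0.107) or with RNA integrity (0.0524).

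The members kept a common order of levels on the per-length scale. ALAS2 lay above FECH and FECH above SLC25A38 in 15 of 15 animals on every day, and SLC25A38 lay above UROD in 15, 14 and 15. The lower part of the order changed with the day. On day 0 the medians went from UROD to CPOX, PPOX, UROS, ALAS1 and ALAD. CPOX was above PPOX in 8 animals, PPOX above UROS in 6 and ALAS1 above ALAD in 10, so these neighbours were not separated. On day 14 the order was UROD, UROS, PPOX, ALAD, CPOX and ALAS1. PPOX was then above ALAD, and CPOX above ALAS1, in 15 of 15 animals, whereas UROS was above PPOX in 8.

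**Figure D4:**
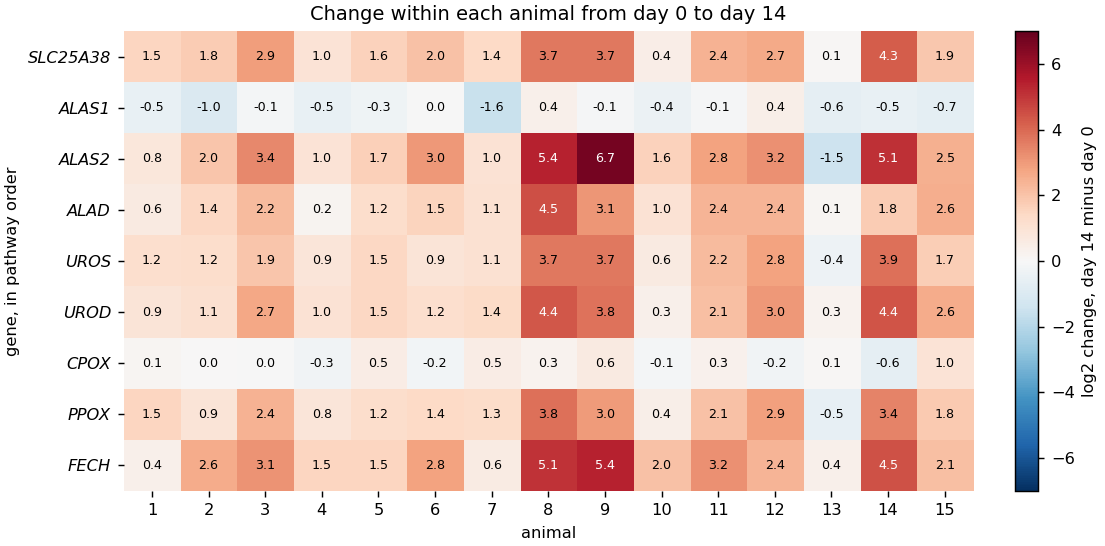
Log2 change of TMM-scaled FPKM + 0.1 from day 0 to day 14 for each gene (rows, in pathway order) in each of the 15 animals (columns), red for higher and blue for lower on day 14. ALAS1 and CPOX stay pale in most animals, the other 7 genes are darkest in animals 8, 9 and 14 (for ALAD in 8 and 9 but not in 14), and in animal 13 the change of ALAS2 is −1.47.

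Counts over the 7 genes that rose are a description, since the genes were grouped by that rise. All 7 were higher on day 14 than on day 0 in 14 of 15 animals, and on day 3 than on day 0 in 12. Between the later days all 7 were higher in 6 animals, and 1 to 6 of the 7 in the others. The median log2 change of the 7 from day 0 to day 14 ran from 0.10 in animal 13 to 4.37 in animal 8. Animal 8 also had the largest rise from day 3 to day 14 (median 3.24), and its day 3 library was 1 of the 3 least like the others.

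Animal 13, described after its values were seen, was the exception. It had the highest ALAS2, UROS and PPOX FPKM of all animals on day 0, and 2 of the 7 genes were higher there on day 3 and 4 on day 14. Its ALAS2 changed by −0.51 to day 3 and by −1.47 to day 14 on the log2 scale, its UROS by −0.37 and its PPOX by −0.55 to day 14. Animal 9, lowest in ALAS2, FECH and SLC25A38 on day 0, had the largest rises of ALAS2 (6.69) and FECH (5.39) to day 14.

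The steps between days were not alike for all members. SLC25A38 rose at both steps in 13 of 15 animals, ALAS2 in 12, UROS in 11, UROD and PPOX in 10, FECH in 8 and ALAD in 7. CPOX rose at both steps in 4 animals and fell at both in 3, and ALAS1 rose at both in 1 and fell at both in 6.

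The members were also set against the mean of the 16 erythroid genes within the same library. For ALAS2 the log2 ratio to that mean changed from day 0 to day 14 by a median of 0.14, with 9 animals up and 6 down, and for FECH by −0.09, with 6 up and 9 down. For SLC25A38 the median was −0.21, for UROD −0.33, for UROS −0.39, for ALAD −0.47 and for PPOX −0.67. For UROS and ALAD the ratio was lower in 13 and 14 of the 15 animals. For CPOX the ratio fell by a median of 1.82, in 14 of 15 animals, and for ALAS1 by 2.62, in 15 of 15. From day 0 to day 3 the median change of the ratio was −0.59 for SLC25A38 (14 animals down), −0.46 for PPOX (13 down), −0.42 for UROD (13 down), −0.40 for FECH (11 down) and −0.34 for UROS (14 down). It was −0.15 for ALAD, 0.01 for ALAS2, −1.06 for ALAS1 and −1.09 for CPOX. Between the later days it was 0.51 for SLC25A38 (10 animals up), 0.25 for ALAS2 (10 up), 0.23 for UROD (9 up) and 0.22 for FECH (11 up). It was 0.10 for UROS, 0.01 for PPOX, −0.32 for ALAD, −0.51 for CPOX and −0.56 for ALAS1. Apart from the 0.1 added after scaling, which weighs on genes of low FPKM, these ratios do not depend on the scaling between libraries. They carry no test here.

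Across the 45 libraries, which include 3 from each animal, the log2 levels of the members differed in how closely they followed ALAS2. Pearson's r with ALAS2 was 0.94 for FECH, 0.91 for PPOX and for SLC25A38, 0.84 for UROD, 0.77 for ALAD and 0.60 for UROS. For CPOX it was 0.10 and for ALAS1 −0.04. With the day means removed, r with ALAS2 was 0.89 for FECH, 0.85 for PPOX and for SLC25A38, 0.72 for UROD and 0.59 for ALAD. It was then 0.36 for UROS, 0.35 for ALAS1 and −0.07 for CPOX. There were 8531 genes with a mean of at least 5 FPKM, the members among them. Of those that are not members, the 5 most like ALAS2 included STRADB (r = 0.966), EIF2AK1 (0.965), MCM2 (0.964) and LOC103237668 (0.963). EIF2AK1 encodes the heme-regulated kinase that slows translation when heme is short, and MCM2 a subunit of the replicative helicase. The 5 most like ALAS1 were ANXA11 (r = 0.771), ACTN1 (0.768), ITPRIP (0.763), FAM101B (0.761) and ZFYVE1 (0.754). These correlations describe libraries that share animals, depth and cell makeup, and have no test.

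Besides the members, a list of 39 genes covers the transport, iron-sulfur cluster, control and breakdown steps around heme synthesis. Of these, 37 were tested (HPX was below the filter and PGRMC1 was not used here). From day 0 to day 14, 16 rose and 3 fell, against 18.3% and 17.7% of all tested genes, and the median log2 fold change was 0.16. Without TMM it was 12 up and 13 down with a median of −0.20, against 7.81% and 41.6% of all tested genes. At the first step 7 rose and none fell, against 6.11% and 6.11% of all tested genes. With the animal as a block 12 rose and 1 fell, where 19.0% of all tested genes were called. At the second step 8 rose and 1 fell, against 7.73% and 5.54%. There the block gave 12 and 2 (23.9% of all tested genes called), and no TMM gave 7 and 9 (3.23% higher and 35.3% lower over all tested genes). The list was thus mixed, with a group of strong risers and a larger number of genes near 0.

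Of the 10 genes for transport of glycine, iron and pathway intermediates, 6 rose and 1 fell on day 14 vs. day 0, against 18.3% and 17.7% of all tested genes (6 and 3 without TMM, against 7.81% and 41.6%). SLC6A9, the plasma membrane glycine transporter GLYT1, went from a median of 1.14 FPKM (0.22 to 3.16) on day 0 to 6.65 (1.21 to 25.6) on day 14, a log2 fold change of 2.75 (adjusted p = 4.3e-06). SLC25A39, a mitochondrial carrier of glutathione, went from 280 FPKM (52.2 to 796) to 1419 (425 to 3004), with a log2 fold change of 2.59. FAM210B, a mitochondrial protein of erythroid differentiation, went from 64.3 to 251 FPKM (log2 fold change 2.05). Named after their values were seen, TMEM14C, ABCB10 and ABCB6 rose by 1.5, 1.07 and 0.89 on the log2 scale. SLC25A28, mitoferrin 2, which brings iron into mitochondria outside the erythroid lineage, fell by 0.33 (adjusted p = 0.0196). SLC25A37, mitoferrin 1, its erythroid counterpart, had an estimate of 0.64 that missed the threshold (adjusted p = 0.109).

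Of the 9 genes for iron-sulfur cluster assembly, on which FECH and the iron sensor ACO1 depend, 4 rose and none fell on day 14, where 36.0% of all tested genes were called. GLRX5, a glutaredoxin of this assembly, went from a median of 119 FPKM (25.5 to 314) on day 0 to 529 (173 to 1060), with a log2 fold change of 2.72. ISCA1, an assembly protein, went from 435 FPKM (140 to 1450) to 1993 (626 to 3226), with a log2 fold change of 2.24. The other risers, named after their values were seen, were ISCU (0.69) and LYRM4 (0.58). The estimates for ISCA2 and NFS1 were near 0, at 0.04 and −0.04. Without TMM 2 of the 9 genes rose and 4 fell.

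Of the 9 genes that control the first enzyme or the pathway, 2 rose and 1 fell on day 14 (2 and 3 without TMM), close to the 36.0% called over all tested genes. EIF2AK1 went from a median of 94.3 FPKM (20.3 to 305) to 447 (177 to 895), with a log2 fold change of 2.56. CLPX, a mitochondrial unfoldase that acts on the first enzyme, had a log2 fold change of 1.31. NRF1, a transcription factor for nuclear genes of mitochondria, fell by 0.46. ACO1, IREB2 and BACH1, which answer to iron or heme, had day 14 estimates of 0.08, −0.18 and 0.03 that missed the threshold. On day 3 ACO1 was higher than on day 0 (log2 fold change 0.30, adjusted p = 0.0248, 14 of 15 animals). Apart from EIF2AK1, these genes were named after their values were seen.

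Of the 9 tested genes for heme export, binding and breakdown, 4 rose and 1 fell on day 14, where 36.0% of all tested genes were called. BLVRB, a biliverdin reductase abundant in red cells, went from a median of 219 FPKM (38.9 to 448) to 761 (270 to 1551), with a log2 fold change of 2.34. SLC48A1, a heme transporter of endosomes, went from 6.52 FPKM to 18.4, with a log2 fold change of 1.75. HMOX1, the inducible heme oxygenase, and BLVRA, the other biliverdin reductase, had log2 fold changes of 0.71 and 0.52 (adjusted p = 0.0177 and 0.0175). FLVCR2, a transporter of the major facilitator family, fell by 0.78 (adjusted p = 0.00618). HMOX1, BLVRA and FLVCR2 were named after their values were seen, and without TMM 2 of the 9 genes rose and 3 fell.

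**Figure D5:**
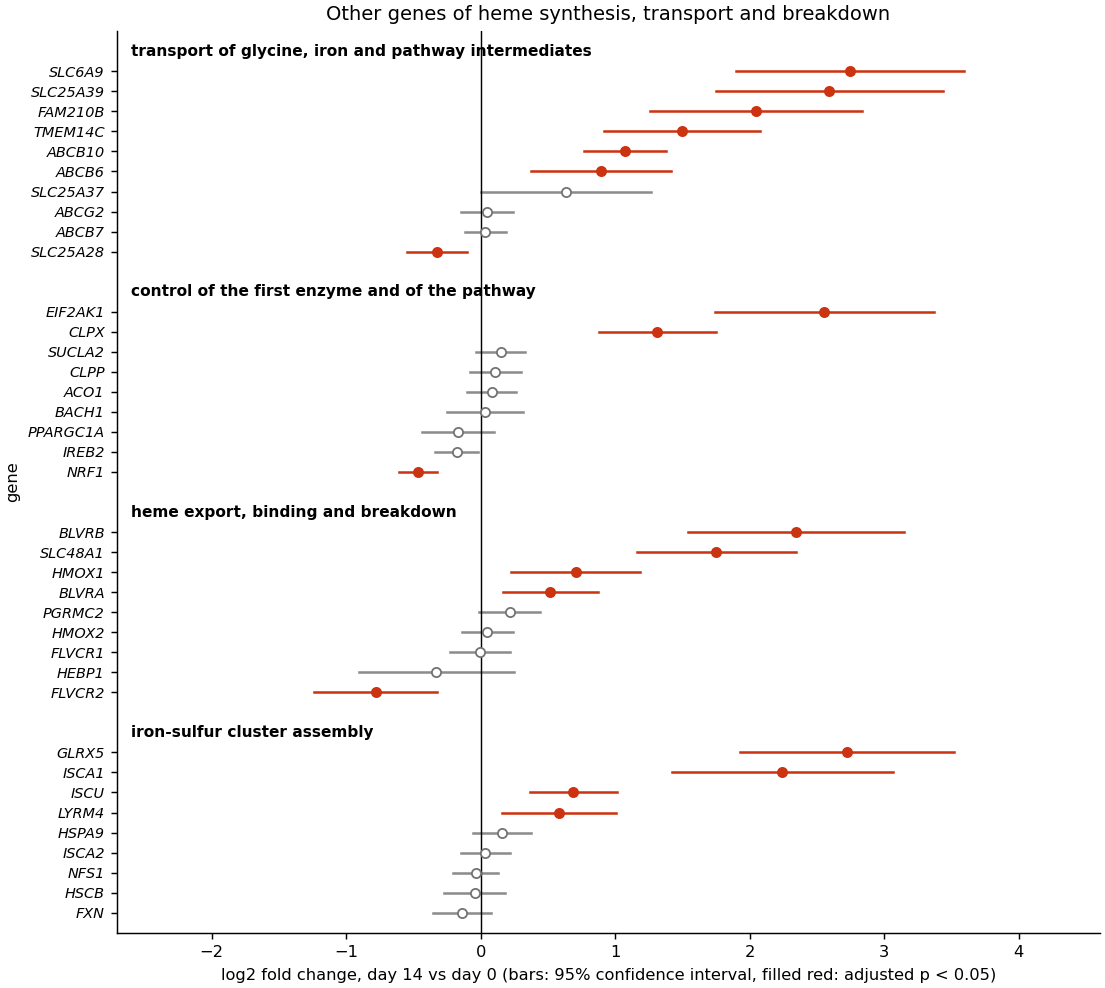
Log2 fold change on day 14 vs. day 0 of the 37 tested genes around heme synthesis, in 4 groups, with 95% confidence intervals as bars and adjusted p under 0.05 as filled red points. SLC6A9 (2.75), GLRX5 (2.72), SLC25A39 (2.59) and EIF2AK1 (2.56) lie farthest to the right, and FLVCR2 (−0.78), NRF1 (−0.46) and SLC25A28 (−0.33) are the 3 that fell.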

How the data were processed

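Whole blood RNA (PAXgene tubes) of 15 animals on 3 days was made into stranded libraries depleted of ribosomal and globin RNA and sequenced as paired ends. The authors demultiplexed with bcl2fastq 2.17, aligned with STAR to the Chlorocebus_sabeus 1.1 assembly and counted per gene with HTSeq. Their other versions, the annotation release and the strand setting are not given in the sources used here. The authors deposited 1 table of FPKM per sample, by gene symbol. No positions are printed, since the annotation at hand is of another assembly.

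Fragments behind the FPKM were recovered where possible: 97.3% of values above 0 gave a number, and 100% of these were whole within 0.05. No 2 libraries were identical. Genes with more than 0.5 CPM in at least 3 libraries were tested. TMM factors (trim 30% and 5%, range 0.53 to 1.55) were computed from the recovered fragments in Python 3.11.15. FPKM were divided by them, 0.1 was added, and log2 values were fitted with limma 3.58.1 (R 4.3.3, intensity trend, 1 mean per day over all 45 libraries). Tests were two-sided, with Benjamini-Hochberg adjustment over 18752 genes and a threshold of 0.05. The ALAS2 to ALAS1 ratio was tested by all 32768 sign flips of 15 animals. The limma fit and the sign-flip test were tested on simulated data. The deposited unit is not counts, so no count model was used.

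The labels tie samples to animals. With day means removed, the mean r across genes was 0.327 between libraries of 1 animal (lowest animal 0.192) and −0.038 between animals. The fit with the animal as a block, no TMM, other pseudocounts, other filters, no trend, a term for RNA integrity number and leaving out each animal were alternatives. Leaving out the 3 least typical libraries was added after seeing the data. Named genes are all 9 members, the 8 other heme genes of largest change on day 14 vs. day 0 among those called with a mean of at least 1 FPKM, and the 5 genes most correlated with each of ALAS2 and ALAS1, of which 1 is not reported here. The members and lists were chosen with earlier results of these data known. The labels give day 14 for the last sample, which is used here.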

Additional observations from a re-analysis of the deposited data

How the results depend on the processing

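On day 14 vs. day 0 the count of members called was 8 without any 1 animal, and 7 with a term for the RNA integrity number, alone or with the replicate block by animal, as ALAS1 was lost. The earlier and later steps were less stable. On day 3 vs. day 0, 3 members were called in the reported fit, 6 with the animal as a block, 6 without TMM, 5 with more than 1 CPM in at least 15 libraries, 1 with RNA integrity, 6 with RNA integrity and the block, and 5 without the 3 least typical libraries. Leaving out 1 animal gave 1 to 4, with 1 left without animal 6 or 11. On day 14 vs. day 3 the counts were 6 with the block, 5 without TMM (3 up and 2 down), 1 with RNA integrity, 2 with RNA integrity and the block and 1 to 4 without 1 animal, with 1 left without animal 3, 8, 9, 12 or 14.

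For the other heme genes, day 3 vs. day 0 gave 7, and 13 with the block, 11 without TMM, 12 without the 3 least typical libraries and 3 to 8 without 1 animal (3 without animal 11). Day 14 vs. day 0 gave 19, and 18 to 20 without 1 animal. Day 14 vs. day 3 gave 9, and 14 with the block, 16 without TMM, 5 with no filter on low values, 3 with RNA integrity and 2 to 11 without 1 animal (under 6 without animal 2, 3, 8, 12 or 14).

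Over all tested genes, day 3 vs. day 0 gave 2291 calls, 3572 with the block, 1446 with RNA integrity and 1376 to 2349 without 1 animal (1376 without animal 2). The member counts of this step without TMM, with the stricter filter, with RNA integrity and the block, or without the 3 least typical libraries have no such count beside them here. Day 14 vs. day 0 gave 6746, 9264 without TMM (1465 up and 7799 down), and 3761 with RNA integrity, 4120 with RNA integrity and the block, and 5873 to 6890 without 1 animal. Day 14 vs. day 3 gave 2488, and 4484 with the block, 7231 without TMM (606 up and 6625 down), 1453 with no filter, 1092 with RNA integrity, 1524 without the 3 least typical libraries and 802 to 3225 without 1 animal (under 1453 without animal 2, 3, 8, 9, 12 or 14). The cause of these shifts was not tested.

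Estimates near 0 changed sign in 4 cases: ALAS1 on day 3 vs. day 0 (−0.102 to 0.016 without 1 animal, above 0 without animal 7, and 0.044 without the 3 least typical libraries), CPOX on day 14 vs. day 0 (−0.289 without TMM) and CPOX on day 14 vs. day 3 (−0.061 to 0.020 without 1 animal, above 0 without animal 6). The ALAS2 to ALAS1 ratio kept its direction and its side of the threshold in every alternative run, at 1.39 to 1.71, 2.68 to 3.23 and 1.19 to 1.52 on the log2 scale without 1 animal. Members differ in depth, and estimates for ALAS1 and ALAD rest on the fewest fragments.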
